A study of Mus musculus with 22 samples.

Results

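The immunoglobulin kappa variable (Igkv) segments were taken as every row of the deposited count table whose gene name begins with Igkv, which gave 160 of the 47069 genes in the table. They were measured by mRNA sequencing of whole bone marrow from 22 C57BL/6 mice. According to the labels, the cells edited were LSK cells, a marrow fraction rich in stem and progenitor cells, from mice with a Cas9 knock-in. They received combinations of guide RNAs and, 24 h later, were given to C57Bl/6J recipients that had been irradiated with 7 Gy. The groups were sgEzh2 + sgRunx1 (4 libraries), sgBcor + sgRunx1 (3), sgRunx1 + sgLuc (3), sgEzh2 + sgLuc (3), sgBcor + sgLuc (3) and sgLuc (6). All of them, sgLuc included, carry Cas9, a guide vector and a transplanted marrow. The luciferase guide sgLuc has no target in the mouse genome and serves as the control and as the partner of each guide used alone. Marrow was taken when leukemia showed or after 6 months, and the labels do not say which held for which mouse. Neither the age of the mice nor whether libraries of a group came from separate transductions is labelled, so the p-values measure the spread between these libraries. The counts do not separate cells grown from the transplant from B-lineage cells that the irradiated host kept.

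A kappa light chain gene is built in each developing B cell by recombination, in which the RAG enzymes join 1 Igkv segment to 1 of the Igkj segments upstream of the constant exon Igkc. Cells that descend from that cell carry the same join, so the segments with reads in a tissue and their shares reflect the joins in its B cells and in its plasma cells, which hold far more immunoglobulin mRNA per cell. Some Igkv segments point the same way as Igkj and are joined by deletion, others point the opposite way and are joined by inversion. Runx1 encodes a transcription factor of blood development, Ezh2 the histone methyltransferase of the Polycomb repressive complex PRC2, and Bcor a corepressor found in a variant form of PRC1. In mouse, Runx1 and Ezh2 are both known to act in early B-cell development.

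Total counts were 34784989 to 53836084 in the 16 edited libraries and 30023722 to 57175449 in the 6 sgLuc libraries. Ezh2 mRNA was lower with its guide, at 57.5 ± 17.1 CPM (counts scaled to the library's total) in sgEzh2 + sgRunx1 and 66.4 ± 6.37 CPM in sgEzh2 + sgLuc, against 98.1 ± 12.1 CPM in sgLuc (SD, edgeR adjusted p = 0.00127 and 0.0212). In sgBcor + sgRunx1, which had no Ezh2 guide, it was 71.4 ± 8.15 CPM, lower than the 133 ± 37.1 CPM of sgBcor + sgLuc (edgeR adjusted p = 0.0212). Against sgLuc that group was not called (edgeR adjusted p = 0.1685). A lower Ezh2 level was thus not confined to its guide. Runx1 and Bcor mRNA were not lower with their guides, and Bcor was 153 ± 58.1 CPM in sgBcor + sgLuc against 59.2 ± 8.06 CPM in sgLuc. A short edit need not change the mRNA level, so these levels do not check the labels of Runx1 and Bcor. All 6 sgLuc libraries held reads of the Y-linked genes Ddx3y (1291 to 3425 counts), Eif2s3y, Kdm5d and Uty, whereas all 16 edited libraries held 0. Sex, or anything else that goes with it, therefore cannot be told apart from the guides wherever sgLuc is the control. The comparisons among edited groups are free of this difference. The library sgEzh2 + sgLuc replicate 3 stood apart, with 2631 CPM summed over 5 T-cell genes against 106 and 111 CPM in its group, and 170 CPM over 5 granulocyte genes against 44743 and 55665 CPM. Where they use it, summed Igkv, the share of the most counted segment and the main call counts are given with and without it. All other values include it unless stated, among them segments at equal depth, evenness, the overlap between mice and the values of other genes.

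Of the 160 rows, 100 are annotated as functional V genes and 60 as pseudogenes, in 20 families. Positions are those of the gene IDs in GENCODE M21 on GRCm38, since the mm9 annotation named in the submitters' notes was not used here. The segments span chr6:67555497-70704177, with 75 on the plus strand and 85 on the minus strand. Igkj1 lies downstream at chr6:70722562-70722599 and Igkc at chr6:70726435-70726966, both on the plus strand. No read of 33 rows was counted in any library, and Igkv1-131 was the only functional segment among these. A read in every sgLuc library was found for 75 rows, 74 of them functional. Igkv1-110 was the 1 segment with a read in all 22 libraries.

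Of the 14 segments that took the largest share of a library's Igkv reads, 11 are shown, by the last 60 bases of their GENCODE transcript, 5′ to 3′, all from chromosome 6. The capitals mark the codon of the conserved cysteine, after which the segment is joined to Igkj, so these bases hold the end of the framework and the start of the last variable loop. The first 4 led a sgLuc library:
Igkv6-32: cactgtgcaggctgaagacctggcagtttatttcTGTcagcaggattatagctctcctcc
Igkv4-70: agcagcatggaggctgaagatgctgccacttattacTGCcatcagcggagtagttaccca
Igkv10-96: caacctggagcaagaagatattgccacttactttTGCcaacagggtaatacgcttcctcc
Igkv3-4: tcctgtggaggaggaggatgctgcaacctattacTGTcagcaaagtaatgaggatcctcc
The next 5 led libraries with a Runx1 guide:
Igkv14-100: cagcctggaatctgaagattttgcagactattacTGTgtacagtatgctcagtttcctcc
Igkv17-127: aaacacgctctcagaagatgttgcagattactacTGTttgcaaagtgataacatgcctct
Igkv5-43: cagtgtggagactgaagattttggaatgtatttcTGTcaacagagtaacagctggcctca
Igkv1-135: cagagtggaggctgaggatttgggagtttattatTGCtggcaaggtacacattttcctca
Igkv14-126: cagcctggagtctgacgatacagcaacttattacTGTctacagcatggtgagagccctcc
The last 2 show how alike members of a family can be, with 96.79% identity over 280 bases, and each led at least 1 library:
Igkv1-117: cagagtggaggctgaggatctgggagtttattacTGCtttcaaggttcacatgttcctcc
Igkv1-110: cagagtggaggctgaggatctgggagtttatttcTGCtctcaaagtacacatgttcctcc

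Likeness of this kind limits the assignment of reads to single segments. Of the 100 functional segments, 46 had a family member at 95% identity or more over 280 bases, and 7 of the 14 segments that led a library did. How reads that fit 2 such segments were handled is not given in the sources used here, so their counts are uncertain, while the summed Igkv count is less exposed. Strand use in the counting is not given either.

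Summed Igkv reads were lower in the marrow of every mouse whose graft carried a Runx1 guide than in any sgLuc marrow. They amounted to 5.89, 0.521, 21.7 and 8.77 CPM in sgEzh2 + sgRunx1, to 6.75, 8.20 and 10.4 CPM in sgBcor + sgRunx1 and to 83.7, 23.2 and 13.4 CPM in sgRunx1 + sgLuc. In counts these are 22 to 3324 Igkv reads per library. The libraries with the Ezh2 or Bcor guide alone held more, at 735, 1303 and 968 CPM in sgEzh2 + sgLuc and 413, 55.4 and 391 CPM in sgBcor + sgLuc. In sgLuc the lowest library had 354 CPM (replicate 4), the median was 3756 CPM and the highest library had 7547 CPM. All 10 libraries with a Runx1 guide lay below all 6 sgLuc libraries, and 9 of the 10 lay below all 6 libraries of the Ezh2 and Bcor guides alone, the exception being sgRunx1 + sgLuc replicate 1 at 83.7 CPM, which lay above sgBcor + sgLuc replicate 2 at 55.4 CPM. In whole marrow, fewer B-lineage cells and less kappa mRNA per cell cannot be told apart.

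**Figure D1:**
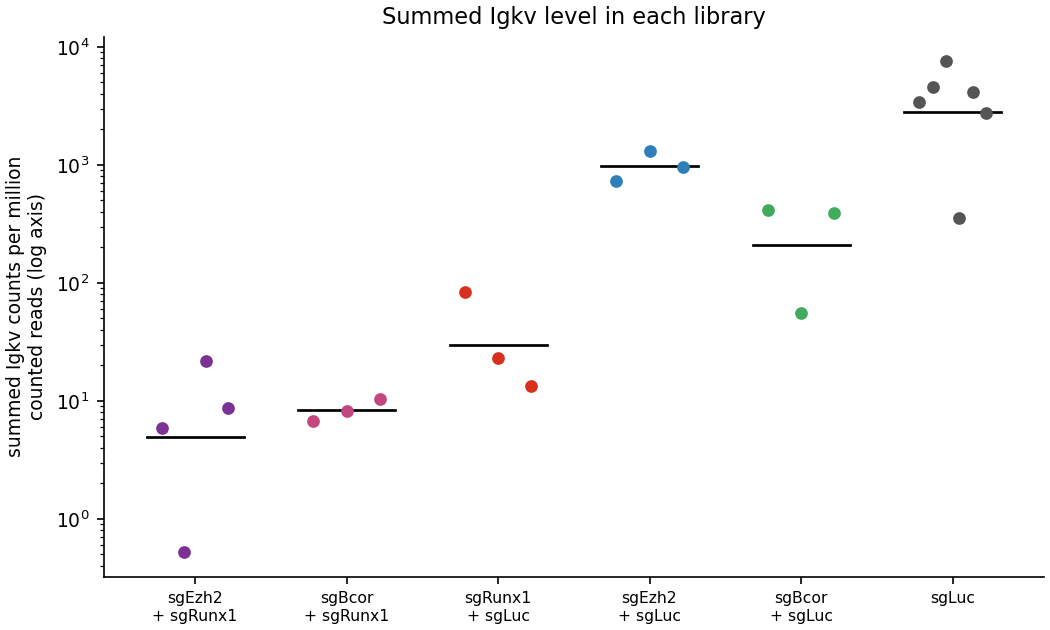
Summed Igkv CPM of each library on a log axis, with 1 point per library and a bar at the geometric mean of its group. The 10 libraries with a Runx1 guide sit between 0.521 and 83.7 CPM, and the 6 sgLuc libraries between 354 and 7547 CPM.

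All folds of summed Igkv given here are ratios of geometric means of CPM + 0.1. Against sgLuc (3788 ± 2364 CPM, SD, n = 6), the geometric mean was 538-fold lower in sgEzh2 + sgRunx1 (9.23 ± 9.02 CPM, n = 4). The exact two-sided permutation test on log2(CPM + 0.1) gave p = 0.00952, adjusted p = 0.0476 over 10 comparisons. That p is the smallest this design allows, and it was lost, at an adjusted p of 0.0595 or more, when any 1 of the 10 libraries was left out. Without sgEzh2 + sgRunx1 replicate 2, which held 22 Igkv reads, the log2 difference moved to -8.05, from -9.07, without sgEzh2 + sgRunx1 replicate 3 to -9.76, and without sgLuc replicate 4 to -9.67. The geometric mean was 331-fold lower in sgBcor + sgRunx1 (8.46 ± 1.84 CPM, n = 3) and 93.7-fold lower in sgRunx1 + sgLuc (40.1 ± 38.1 CPM, n = 3) than in sgLuc. In both of these the groups did not overlap, the exact permutation test gave p = 0.0238, the smallest that 3 against 6 libraries allow, and the adjusted p was 0.0595.

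Neither guide alone set its group clear of sgLuc. The geometric mean of summed Igkv was 2.86-fold lower in sgEzh2 + sgLuc (1002 ± 286 CPM, SD, n = 3, exact permutation p = 0.143, adjusted p = 0.143) and 13.4-fold lower in sgBcor + sgLuc (287 ± 200 CPM, n = 3, p = 0.0714, adjusted p = 0.119) than in sgLuc. The sgLuc library replicate 4, at 354 CPM, fell inside the range of the edited libraries. Without it, the log2 difference of sgBcor + sgLuc was -4.34 (exact permutation p = 0.0357, adjusted p = 0.0595), and without sgBcor + sgLuc replicate 2 it was -2.79. Leaving out sgEzh2 + sgLuc replicate 3 gave -1.51 for sgEzh2 + sgLuc against sgLuc, as with it.

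The comparison of all 10 libraries with a Runx1 guide against the 6 libraries with the Ezh2 or Bcor guide alone has more libraries and no difference in Y-linked reads. There, summed Igkv was 18.3 ± 24.0 CPM against 644 ± 450 CPM (SD), a 44.5-fold lower geometric mean, with p = 0.0004995 in the exact two-sided permutation test and an adjusted p of 0.004995. The call held without any 1 library, including sgEzh2 + sgLuc replicate 3 (-5.25, adjusted p = 0.0133), with log2 differences of -6.08 to -5.03 around -5.47. The lowest of these, -6.08, was the value without sgBcor + sgLuc replicate 2.

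Setting each guide pair against its own single guides gave 188-fold lower summed Igkv in sgEzh2 + sgRunx1 than in sgEzh2 + sgLuc and 24.7-fold lower in sgBcor + sgRunx1 than in sgBcor + sgLuc, with no overlap in either. Without sgEzh2 + sgLuc replicate 3 the log2 difference of the first was -7.56, as with it. The exact permutation test gave p = 0.0571 (adjusted p = 0.114) and p = 0.1 (adjusted p = 0.125), in each case the smallest these group sizes allow. Against sgRunx1 + sgLuc, summed Igkv was 5.74-fold lower in sgEzh2 + sgRunx1 (exact permutation p = 0.114, adjusted p = 0.127) and 3.53-fold lower in sgBcor + sgRunx1 (p = 0.1, the smallest possible, adjusted p = 0.125).

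Fewer segments had reads where Runx1 was targeted, also at an equal number of reads. Reads fell on 14, 2, 19 and 28 segments in sgEzh2 + sgRunx1, 17, 12 and 17 in sgBcor + sgRunx1, and 43, 36 and 14 in sgRunx1 + sgLuc. They fell on 102, 110 and 110 segments in sgEzh2 + sgLuc, on 104, 69 and 84 in sgBcor + sgLuc, and on 87 to 106 in sgLuc. At an equal depth of 1000 Igkv reads, which only 2 libraries with a Runx1 guide reached, the expected number of segments with a read was 35.4 and 35.6 in sgRunx1 + sgLuc, 70.7 ± 5.64 in sgEzh2 + sgLuc, 64.4 ± 8.28 in sgBcor + sgLuc and 65.8 ± 7.12 in sgLuc (SD). The exact permutation test of sgRunx1 + sgLuc against sgLuc gave p = 0.0714, the smallest 2 against 6 libraries allow, and an adjusted p of 0.143. The Ezh2 and Bcor guides alone differed from sgLuc by 4.86 and -1.45 segments (exact permutation p = 0.333 and 0.810, adjusted p = 0.444 and 0.810). Over both sgRunx1 + sgLuc libraries that reached this depth, the difference from the Ezh2 and Bcor guides alone was -32.0 segments (exact permutation p = 0.0714, the smallest possible, adjusted p = 0.143).

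At 200 Igkv reads, a depth added after the counts had been seen, all libraries but sgEzh2 + sgRunx1 replicate 2 (22 reads) could be compared. The expected number of segments was 16.6 ± 5.0 in sgEzh2 + sgRunx1 (n = 3), 13.4 ± 1.47 in sgBcor + sgRunx1 and 20.8 ± 7.87 in sgRunx1 + sgLuc. It was 45.9 ± 5.96 in sgEzh2 + sgLuc, 43.1 ± 6.25 in sgBcor + sgLuc and 43.7 ± 6.36 in sgLuc. The 9 libraries with a Runx1 guide ranged from 11.7 to 25.9 segments, all below the 39.5 to 52.7 of the Ezh2 and Bcor guides alone and the 34.9 to 53.6 of sgLuc. Against the Ezh2 and Bcor guides alone the difference was -27.6 segments (17.0 ± 5.69 against 44.5 ± 5.67, SD), with p = 0.0003996, the smallest the exact permutation test can give there, and an adjusted p of 0.003996. Against sgLuc, each of the 3 groups with a Runx1 guide had an exact permutation p of 0.0238 and an adjusted p of 0.0595, without overlap.

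**Figure D2:**
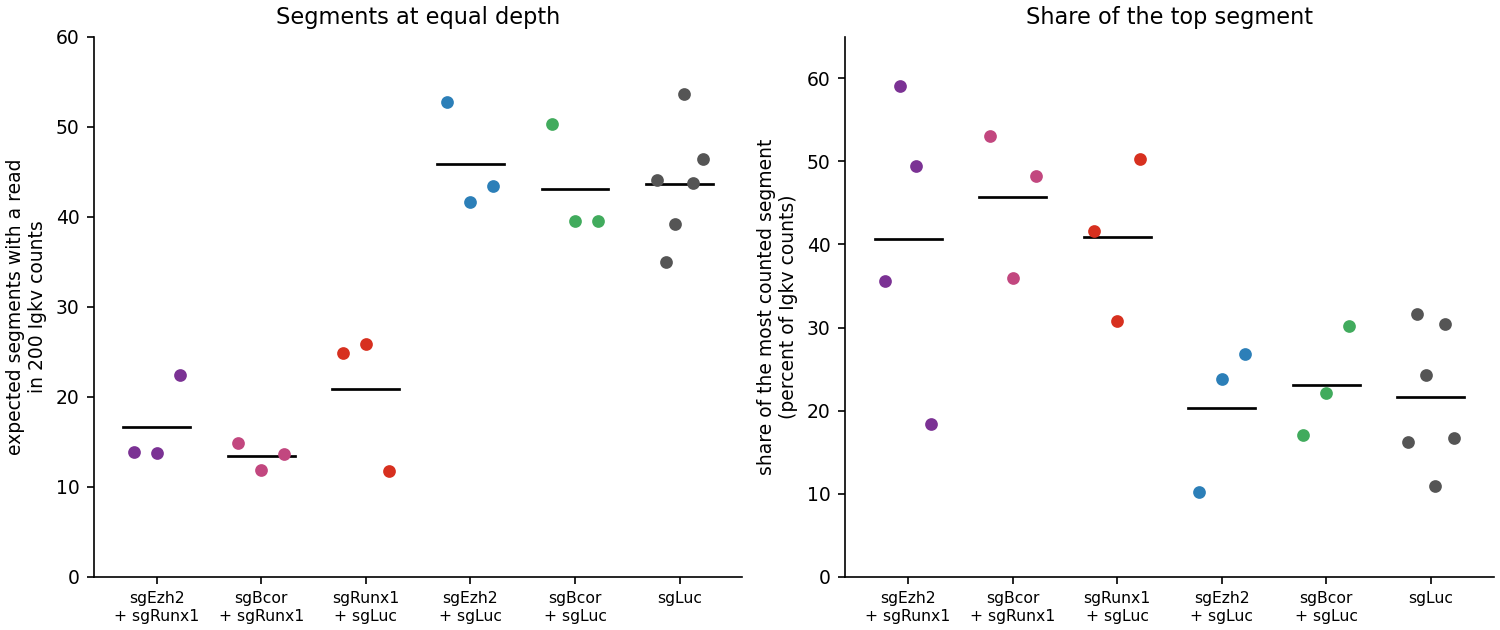
Left, expected number of Igkv segments with a read when each library is thinned to 200 Igkv counts. Right, share of the most counted segment in percent of Igkv counts. Each point is a library and each bar the mean of its group. On the left the 9 libraries with a Runx1 guide lie at 11.7 to 25.9 segments and the others at 34.9 or more, and on the right the groups overlap.

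A single segment made up a large part of the Igkv reads in most libraries with a Runx1 guide. In sgEzh2 + sgRunx1 the top segment was Igkv1-135 in replicate 1 with 35.6% of Igkv reads (95% Wilson interval 29.4 to 42.4%), Igkv1-110 in replicate 2 with 59.1% (38.7 to 76.7%), Igkv5-43 in replicate 3 with 49.4% (46.0 to 52.8%) and Igkv8-28 in replicate 4 with 18.4% (15.2 to 22.2%). In sgBcor + sgRunx1 it was Igkv14-100 in replicate 1 with 53.0% (47.4 to 58.7%), Igkv14-126 in replicate 2 with 36.0% (31.0 to 41.4%) and Igkv1-117 in replicate 3 with 48.2% (43.4 to 53.0%). In sgRunx1 + sgLuc it was Igkv14-100 in replicate 1 with 41.6% (39.9 to 43.3%), Igkv3-4 in replicate 2 with 30.8% (28.1 to 33.7%) and Igkv17-127 in replicate 3 with 50.3% (46.1 to 54.5%). No 2 libraries within any of these groups had the same leader.

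The other groups had lower mean top shares, though single libraries overlapped with those that had a Runx1 guide. In sgEzh2 + sgLuc, Igkv14-126 led replicate 1 with 10.2%, Igkv1-122 replicate 2 with 23.8% and Igkv1-117 replicate 3 with 26.8%. In sgBcor + sgLuc, Igkv14-126 led replicate 1 with 17.1%, Igkv10-96 replicate 2 with 22.1% and Igkv8-30 replicate 3 with 30.2%. In sgLuc, Igkv6-32 led replicate 2 with 31.6% and replicate 6 with 16.7%, and the leaders of the others were Igkv3-4 with 16.2%, Igkv4-70 with 24.3%, Igkv1-117 with 10.9% and Igkv10-96 with 30.5% in replicates 1, 3, 4 and 5. Each of these 12 shares has a 95% Wilson interval at most 3.23 points wide. Reads are not independent molecules, so the intervals cover counting error only. No library's leader changed when counts were divided by segment length.

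The top share was 42.3 ± 12.2% over the 10 libraries with a Runx1 guide and 21.7 ± 7.15% over the 6 libraries with the Ezh2 or Bcor guide alone (SD). The difference of 20.6 points had p = 0.00275 in the exact two-sided permutation test and an adjusted p of 0.0275. It held without sgEzh2 + sgLuc replicate 3 (21.6 points, adjusted p = 0.0400), and its adjusted p was 0.0533 to 0.0733 without replicate 1 or 2 of sgEzh2 + sgLuc or replicate 1 or 2 of sgBcor + sgLuc. Against sgLuc (21.7 ± 8.4%), the top share was 18.9 points higher in sgEzh2 + sgRunx1 (40.6 ± 17.7%, exact permutation p = 0.0667, adjusted p = 0.167), 24.1 points higher in sgBcor + sgRunx1 (45.7 ± 8.78%, p = 0.0238, adjusted p = 0.119) and 19.2 points higher in sgRunx1 + sgLuc (40.9 ± 9.75%, p = 0.0476, adjusted p = 0.159). It differed by -1.44 points in sgEzh2 + sgLuc and 1.43 points in sgBcor + sgLuc (adjusted p = 0.952 each, exact permutation test), and by -4.69 points in sgEzh2 + sgLuc without its replicate 3. Ranked by share, the segments needed to reach 50% of the Igkv reads numbered 1 to 3 in sgEzh2 + sgRunx1, 1 or 2 in sgBcor + sgRunx1 and 1 to 4 in sgRunx1 + sgLuc, against 4 to 11 in sgEzh2 + sgLuc, 3 to 9 in sgBcor + sgLuc and 2 to 12 in sgLuc.

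Evenness, the entropy of the shares divided by its maximum for the segments with reads, did not set any group apart. It was 0.754 ± 0.165 in sgEzh2 + sgRunx1, 0.661 ± 0.0902 in sgBcor + sgRunx1 and 0.653 ± 0.0703 in sgRunx1 + sgLuc. It was 0.711 ± 0.0903 in sgEzh2 + sgLuc, 0.735 ± 0.0616 in sgBcor + sgLuc and 0.711 ± 0.0770 in sgLuc (SD). No comparison passed, with adjusted p-values of 0.887 to 0.976 in exact permutation tests. The measure divides by the number of segments seen, which falls with read number: sgEzh2 + sgRunx1 replicate 2, with 2 segments in 22 reads, has the highest evenness of all libraries, 0.976. The effective number of segments, the exponential of the entropy without that division, was 6.43, 1.97, 5.53 and 12.4 in sgEzh2 + sgRunx1, 5.25, 6.62 and 6.06 in sgBcor + sgRunx1 and 9.74, 13.8 and 5.12 in sgRunx1 + sgLuc. It was 43.4, 22.9 and 21.4 in sgEzh2 + sgLuc, 36.8, 25.5 and 19.0 in sgBcor + sgLuc, and between 14.8 and 45.2 in sgLuc. On the log2 scale it differed by -2.06 between the libraries with a Runx1 guide and the Ezh2 and Bcor guides alone (adjusted p = 0.0025, exact permutation test), where evenness differed by -0.0275 (adjusted p = 0.887). The effective number too was taken at each library's own depth and cannot exceed the number of segments seen. The libraries with a Runx1 guide had 22 to 3324 Igkv reads, and those with the Ezh2 or Bcor guide alone 2530 to 59839. The part of depth in this difference was not tested.

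Which segments were used differed from mouse to mouse in every group. Over the 22 libraries, 14 different segments led a library, and 27 segments passed 10% of the Igkv reads in at least 1 library. Of these 27, 17 did so in exactly 1 library and 10 in several, at most 4 libraries for Igkv14-126, and 0 were pseudogenes. Igkv14-126, which lies at chr6:67896172-67896642, 2826 kb upstream of Igkj1 and in the same orientation, was at 10.2, 6.01 and 9.94% in sgEzh2 + sgLuc and 17.1, 3.60 and 15.3% in sgBcor + sgLuc, against 0.605 to 3.47% in sgLuc. In the libraries with a Runx1 guide it was at 36.0% in sgBcor + sgRunx1 replicate 2 and at 0 to 4.47% in the others. Igkv14-100 (chr6:68519012-68519477), the leader of sgBcor + sgRunx1 replicate 1 and sgRunx1 + sgLuc replicate 1, was at most 0.708% in sgLuc and at most 3.80% in the Ezh2 and Bcor guides alone. Igkv17-127 (chr6:67861153-67861659), at 50.3% in sgRunx1 + sgLuc replicate 3, was at most 2.32% in sgLuc. Both were thus minor segments in control marrow that led single marrows with a Runx1 guide.

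Of the 8 main segments of sgLuc marrow, 2 led a library where Runx1 was targeted. By mean share over the 6 sgLuc libraries they were Igkv6-32 (8.51 ± 13.0%), Igkv4-70 (7.19 ± 9.09%), Igkv10-96 (6.70 ± 11.7%), Igkv15-103 (5.47 ± 7.36%), Igkv3-4 (5.34 ± 6.18%), Igkv5-39 (5.14 ± 2.22%), Igkv1-117 (3.69 ± 3.68%) and Igkv3-2 (2.71 ± 4.92%). Except for Igkv5-39, the SD over mice was as large as the mean or close to it, so the ranking rests on a few mice: Igkv6-32 was at 31.6 and 16.7% in replicates 2 and 6 and at 0.154 to 1.10% in the other 4. The 2 leaders were Igkv3-4 at 30.8% and Igkv1-117 at 48.2%. Igkv3-2 held 40.9% of the 22 reads of sgEzh2 + sgRunx1 replicate 2, as its other segment, and Igkv15-103 18.0% of sgEzh2 + sgRunx1 replicate 4. Igkv4-70 had no read in 8 of the 10 libraries with a Runx1 guide and at most 1.06% in the other 2.

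**Figure D3:**
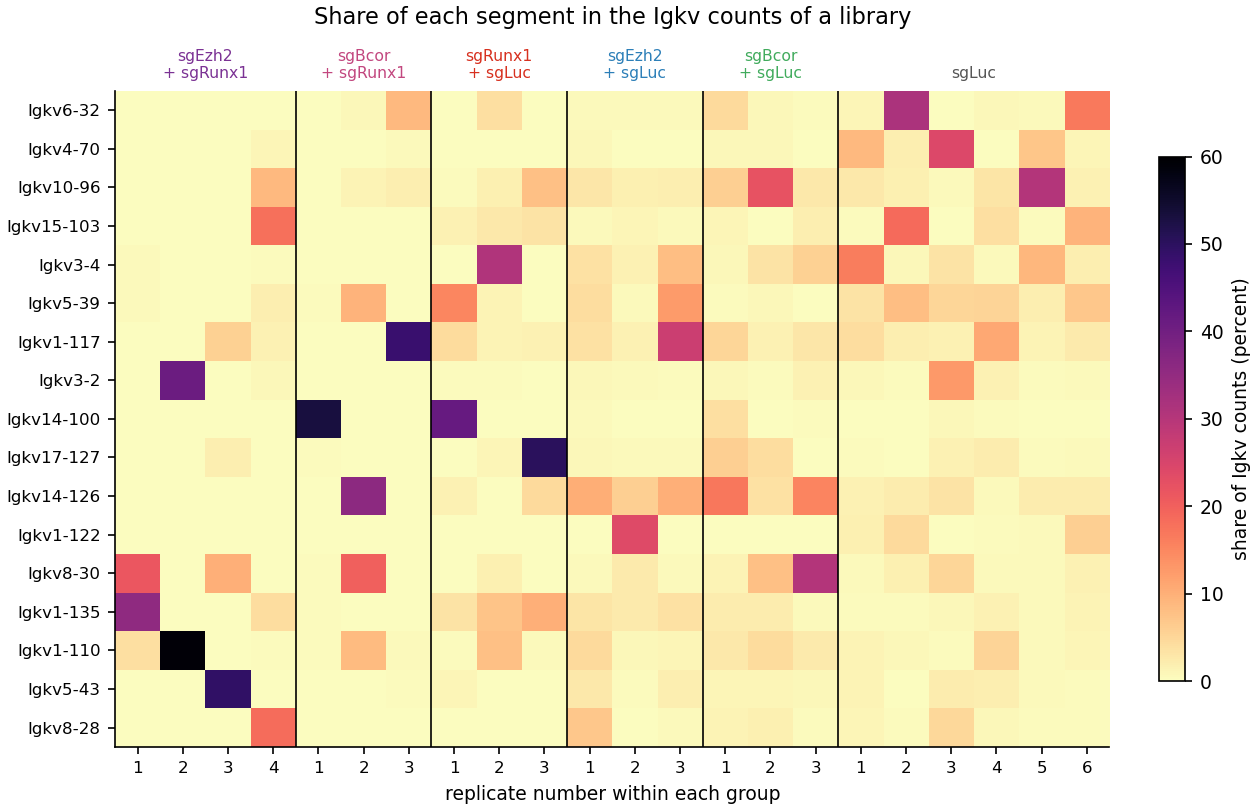
Share of Igkv counts, in percent by color, of 17 segments (rows: the 8 with the highest mean share in sgLuc, then the other leaders of a library) in each of the 22 libraries (columns, by group and replicate). Dark cells lie in different rows from library to library, and libraries with a Runx1 guide mostly have 1 or 2 dark cells, such as Igkv14-100 at 53.0% in sgBcor + sgRunx1 replicate 1.

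The overlap between mice was measured with the Morisita-Horn index, which is 1 for the same shares and 0 for no shared segment. Within sgLuc the median of 15 pairs was 0.258 (0.114 to 0.804), and it was 0.162 to 0.493 within sgEzh2 + sgLuc and 0.423 to 0.525 within sgBcor + sgLuc. Pairs within sgEzh2 + sgRunx1 had 0.00173 to 0.130, within sgBcor + sgRunx1 0.00591 to 0.0151 and within sgRunx1 + sgLuc 0.0230 to 0.0798. The highest index was between groups, 0.852 for sgBcor + sgRunx1 replicate 1 and sgRunx1 + sgLuc replicate 1, both led by Igkv14-100. The indices were not tested.

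By position, 50 segments lie within 1 Mb of Igkj1, 57 between 1 and 2 Mb and 53 beyond 2 Mb. Segments beyond 2 Mb took 26.9 to 59.3% of Igkv reads in sgEzh2 + sgRunx1, 49.5 to 67.9% in sgBcor + sgRunx1 and 34.9 to 79.1% in sgRunx1 + sgLuc. They took 41.6 to 55.2% in sgEzh2 + sgLuc, 31.9 to 51.2% in sgBcor + sgLuc and 16.8 to 43.8% in sgLuc, and of the edited groups sgBcor + sgRunx1 was the 1 whose range lay wholly above that of sgLuc. Segments in the orientation opposite to Igkj took 54.1, 0, 71.5 and 44.7% in sgEzh2 + sgRunx1, 32.4 to 51.7% in sgBcor + sgRunx1 and 22.4 to 38.4% in sgRunx1 + sgLuc, against 35.1 to 48.5% in sgEzh2 + sgLuc, 45.2 to 64.1% in sgBcor + sgLuc and 51.2 to 72.8% in sgLuc. No test of these shares was run. Pseudogenes held at most 0.703% of Igkv reads in any library but sgEzh2 + sgRunx1 replicate 3, where they held 1.90%, or 16 reads.

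For single segments, all genes were fitted together with edgeR (quasi-likelihood test, 22 libraries), and a call required an adjusted p (Benjamini-Hochberg) under 0.05 over all 17659 genes that passed the filter on low counts. Of the 160 rows, 93 passed it. Many passed only through the groups where they are high, so their counts describe those 93 segments and not all members. Every call was lower in the group named first, and no segment was called higher in any of the 10 comparisons or their alternatives. Of all genes tested, 4.03, 4.73, 2.76, 6.29 and 1.97% were called higher than in sgLuc in sgEzh2 + sgRunx1, sgBcor + sgRunx1, sgRunx1 + sgLuc, sgEzh2 + sgLuc and sgBcor + sgLuc. The share called higher was 0.136% in sgEzh2 + sgRunx1 and 0.419% in sgBcor + sgRunx1 against sgRunx1 + sgLuc, 3.98% in sgEzh2 + sgRunx1 against sgEzh2 + sgLuc, 3.47% in sgBcor + sgRunx1 against sgBcor + sgLuc, and 8.23% with a Runx1 guide against the Ezh2 and Bcor guides alone. The 5 comparisons with sgLuc share its 6 libraries.

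Against sgLuc, 78 of the 93 segments were called lower in sgEzh2 + sgRunx1, where 6.09% of all genes tested were called lower. In sgBcor + sgRunx1 74 were called lower (all genes 9.69%), and in sgRunx1 + sgLuc 60 (all genes 5.36%). Of these calls, 40, 42 and 20 were segments with 0 reads in the edited group. The counts for the smaller groups depend on their size. Without replicate 1, 2 or 3 of sgRunx1 + sgLuc the 60 became 30, 28 and 28 of 98 tested. Calls over all genes, in both directions, fell there too, from 1434 to 562, 515 and 735. Without replicate 1, 2 or 3 of sgBcor + sgRunx1 the 74 became 47, 53 and 43 of 98 tested. Calls over all genes, in both directions, went from 2547 to 1827, 2253 and 1427. For sgEzh2 + sgRunx1 the count stayed at 61 to 78 when any 1 library of the groups compared was left out (all genes, both directions, 1176 to 1714, against 1787). All groups share 1 fit, and leaving sgEzh2 + sgLuc replicate 3 out of it gave 86 calls in sgEzh2 + sgRunx1 (all genes 9.76%), 74 in sgBcor + sgRunx1 (13.6%) and 62 in sgRunx1 + sgLuc (8.84%), of 98 segments tested.

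Fewer segments were called by edgeR with the other guides alone. In sgBcor + sgLuc 11 of 93 were called lower than in sgLuc (all genes 1.19%), where 62 had an unadjusted p under 0.05 and DESeq2 called 32. The count by edgeR was 5, 2 and 0 without its replicates 1, 2 and 3 (all genes, both directions, 210, 511 and 120, against 558). Without sgLuc replicates 1, 3, 5 and 6 it was 6, 7, 5 and 6, and it was 17 (all genes 3.62%) when sgEzh2 + sgLuc replicate 3 was left out of the shared fit. In sgEzh2 + sgLuc 2 were called lower (all genes 1.95%), and the count was 3, 0 and 0 without its replicates 1, 2 and 3. The calls over all genes in this comparison rest on replicate 3 too, with 0.248% lower and 0.803% higher without it. The count of segments was 1 without sgLuc replicate 1, 3 or 5 and 7 without sgLuc replicate 4, and DESeq2 called 7. At an unadjusted edgeR p under 0.05 there were 23. The median log2 fold change of the 93 was -1.38 in sgEzh2 + sgLuc, where that of all genes was 0.056, and -3.60 in sgBcor + sgLuc, where that of all genes was 0.002. No such median is given where many segments had 0 reads, since their fitted fold changes depend on the prior count.

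Adding the Runx1 guide to the Ezh2 guide gave 63 calls of lower segments (all genes 8.64%), or 50 (all genes 6.22%) without sgEzh2 + sgLuc replicate 3. Adding it to the Bcor guide gave 29 (all genes 8.77%). The 29 became 28 (all genes 12.6%) with sgEzh2 + sgLuc replicate 3 out of the shared fit. It became 11 and 17 without sgBcor + sgLuc replicates 1 and 3, with 1138 and 1093 calls over all genes in both directions, against 2161. It became 14, 14 and 13 without sgBcor + sgRunx1 replicates 1, 2 and 3, with 1662, 1533 and 1227 such calls. In the comparison of all libraries with a Runx1 guide with the Ezh2 and Bcor guides alone, 77 of 93 were called lower (all genes 16.9%), 17 of them with 0 reads in all 10 libraries. That count was 68 to 80 without any 1 library, and 77 (all genes 15.3%) without sgEzh2 + sgLuc replicate 3. Against sgRunx1 + sgLuc, no segment was called in either double-guide group by edgeR: 0 of 93 were called in sgEzh2 + sgRunx1 (lower calls over all genes 0.051%), where 20 had an unadjusted p under 0.05 and DESeq2 called 12, and 0 in sgBcor + sgRunx1 (all genes 0.821%), where 10 had an unadjusted p under 0.05 and DESeq2 called 10. With sgEzh2 + sgLuc replicate 3 out of the shared fit both counts were still 0 by edgeR, with 13 and 7 segments at an unadjusted p under 0.05, but the shares of all genes called lower were 1.41 and 2.76%. Counts of 0 are near the shares over all genes. Of the 93 segments, 53 had 0 counts in sgEzh2 + sgRunx1, 58 in sgBcor + sgRunx1 and 39 in sgRunx1 + sgLuc. A lower level could not be called for the 39 that were at 0 in sgRunx1 + sgLuc, so the 0 calls do not show equal levels.

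**Figure D4:**
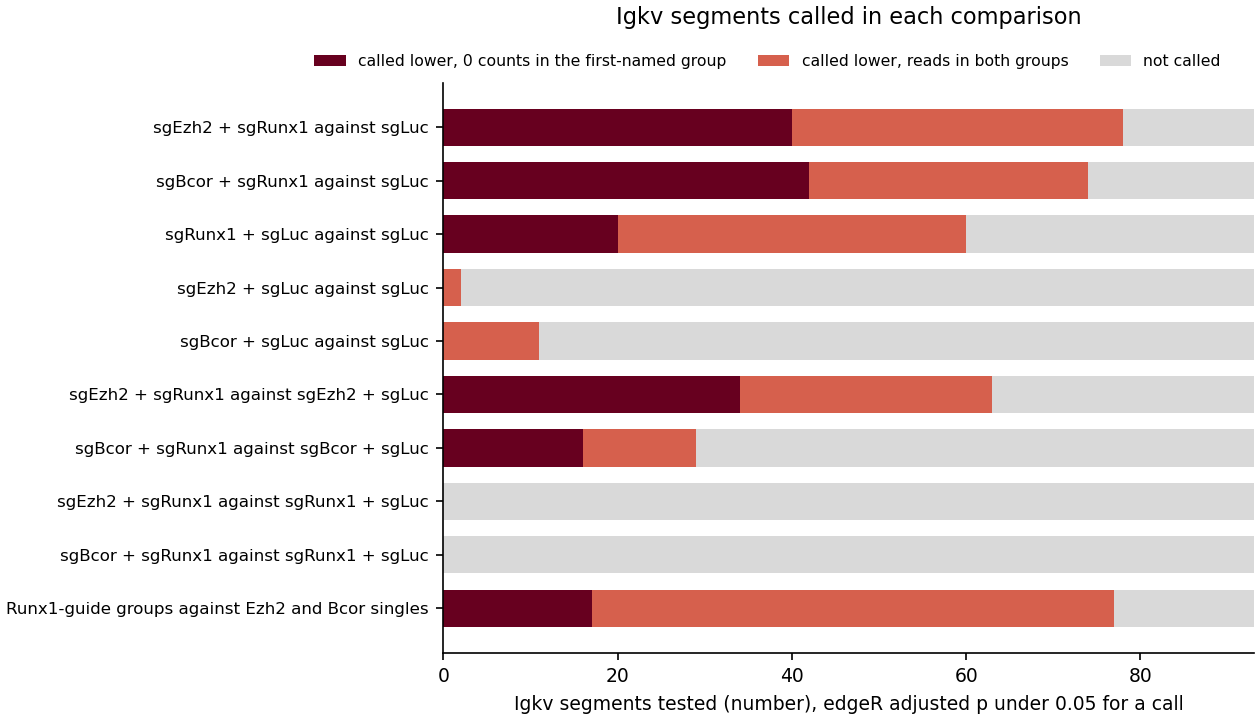
Number of the 93 tested Igkv segments called by edgeR at an adjusted p under 0.05 in each comparison, split into those with 0 counts in the whole first-named group (dark) and those with reads in both groups (light), with the segments not called in grey. Calls are many wherever a group with a Runx1 guide is set against one without, as in the 78 of sgEzh2 + sgRunx1 against sgLuc, and 0 where such a group is set against sgRunx1 + sgLuc.

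Named segments illustrate the sizes. Where a group had 0 counts, the bound sets 3 counts over the summed library totals of that group against the summed counts of the other group over its summed totals, so larger libraries weigh more than in a mean of CPM. Igkv6-32 had 0 counts in all 4 libraries of sgEzh2 + sgRunx1, against 3.09 CPM in the lowest, 32.7 in the median and 1447 CPM in the highest sgLuc library, at least 16124.2-fold lower (edgeR adjusted p = 0.00469, but not called when only these groups were fitted). Igkv4-55 and Igkv12-46, also at 0 there, were at least 6431-fold and 5670-fold lower (edgeR adjusted p = 0.00352 and 0.00398) and were called under all 17 alternatives. Their lowest, median and highest sgLuc levels were 1.07, 88.4 and 282 CPM and 2.93, 58.2 and 318 CPM. Igkv3-4 had 0 counts in sgBcor + sgRunx1 against 1.80, 155 and 548 CPM in the lowest, median and highest sgLuc library, at least 9600.1-fold lower (edgeR adjusted p = 0.00366), and was called under all 16 alternatives. Igkv15-103 and Igkv3-2, again at 0, were at least 6867-fold and 6391-fold lower there, and neither was called when only these groups were fitted. In sgLuc their lowest, median and highest levels were 12.2, 14.1 and 852 CPM and 5.33, 16.1 and 960 CPM, so their bounds rest on a few mice. Of the 33696 sgLuc counts of Igkv3-2, 30870 were in replicate 3.

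In sgRunx1 + sgLuc, Igkv4-70 had 0 counts, against 0.0946, 191 and 1833 CPM in the lowest, median and highest sgLuc library, at least 17099.7-fold lower (edgeR adjusted p = 0.00641, not called when only these groups were fitted). Igkv9-124 also had 0 counts there, against 3.41, 23.3 and 52.8 CPM in the lowest, median and highest sgLuc library, at least 1033-fold lower (edgeR adjusted p = 0.000677), and was called under all 16 alternatives. Igkv4-61, at 0 against 1.90, 8.12 and 259 CPM, was at least 1841-fold lower, and its call was lost in 6 of 16 alternatives, among them without any 1 library of sgRunx1 + sgLuc. Among the sgLuc libraries themselves, the highest level of a segment was a median 26.7 times the lowest. For Igkv4-70 it was 19378 times the lowest, the widest spread of any segment with reads in all 6 and wider than its bound above. Its lowest level rests on 3 counts in sgLuc replicate 4, and 58955 of its 88985 sgLuc counts were in replicate 3.

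In sgBcor + sgLuc, Igkv5-39 was at 0.977, 0.482 and 0.526 CPM, against 18.5, 153 and 388 CPM in the lowest, median and highest sgLuc library, without overlap (edgeR log2 fold change -8.24, SE 1.69, adjusted p = 0.0135). Its call was lost in 3 of 16 alternatives, without sgBcor + sgLuc replicate 1 or 3 and with the replicate number as a block in the fit. Igkv6-23 was at 3.03, 0.394 and 0.694 CPM against 5.80, 41.5 and 223 CPM (log2 fold change -5.66, SE 1.31, edgeR adjusted p = 0.0284). Its call was lost in 6 of 16 alternatives, among them without any 1 library of sgBcor + sgLuc. Igkv1-99 was low under both guides, at 0.150, 0.0219 and 1.15 CPM in sgBcor + sgLuc and 1.53, 0.0436 and 0.173 CPM in sgEzh2 + sgLuc, against 6.06, 51.2 and 155 CPM in sgLuc. Its edgeR adjusted p-values were 0.0458 and 0.0320, and its call was lost in 9 of 16 and 7 of 15 alternatives. The other segment called in sgEzh2 + sgLuc was Igkv4-70, with a log2 fold change of -7.44 (SE 1.97, edgeR adjusted p = 0.0302) and values of 5.80, 0.784 and 1.06 CPM that overlap sgLuc replicate 4 at 0.0946 CPM.

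In sgEzh2 + sgRunx1, Igkv14-126 was at 0 counts against 75.3, 78.3 and 96.2 CPM in sgEzh2 + sgLuc. It was at least 4714-fold lower (edgeR adjusted p = 0.00245) and was called under all 13 alternatives. Igkv1-122 and Igkv3-10 were highest in sgEzh2 + sgLuc replicate 2. Igkv1-122 was at 0 against 1.36, 310 and 0.604 CPM, and its call (edgeR adjusted p = 0.0344) was lost in 9 of 13 alternatives, among them without that library. Igkv3-10 was at 0 against 4.14, 146 and 1.68 CPM (edgeR adjusted p = 0.00519), and its call was lost in 1 of 13 alternatives, with only these groups in the fit. In sgBcor + sgRunx1, Igkv8-24 was at 0 against 4.93, 1.14 and 9.06 CPM in sgBcor + sgLuc, at least 203-fold lower (edgeR adjusted p = 0.00518, called under all 13 alternatives). Igkv3-7 was at 0 against 13.4, 1.23 and 1.12 CPM (edgeR adjusted p = 0.0121). Its call was lost in 2 of 13 alternatives, without sgBcor + sgLuc replicate 1 and with only these groups in the fit. Igkv3-4 was at 0 against 3.76, 1.88 and 22.4 CPM (edgeR adjusted p = 0.0418, lost in 8 of 13 alternatives).

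Between all libraries with a Runx1 guide and the Ezh2 and Bcor guides alone, Igkv8-21 had 0 counts in all 10 libraries, against 12.2, 3.01 and 3.13 CPM in sgEzh2 + sgLuc and 2.33, 2.15 and 4.64 CPM in sgBcor + sgLuc. It was at least 633-fold lower (edgeR adjusted p = 2.05e-06). Igkv3-7 had 8 counts in those 10 libraries, all in 2 of them (0.155 CPM in sgRunx1 + sgLuc replicate 2 and 0.0259 CPM in sgEzh2 + sgRunx1 replicate 3), against 1.12 to 47.3 CPM (log2 fold change -9.74, SE 1.20, edgeR adjusted p = 2.24e-05). Igkv12-41 had 1 count in the 10 libraries against 1076 counts in the 6, a ratio of 1709 (summed counts over summed totals) with a counting interval of 306 to 67565 (edgeR adjusted p = 0.000222). All 3 segments were called under all 22 alternatives of this comparison.

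The other genes of the kappa locus were low in the same groups. Igkc, the constant region shared by all kappa chains, was at 12.4, 3.13, 50.4 and 16.1 CPM in sgEzh2 + sgRunx1, 7.28, 19.4 and 16.1 CPM in sgBcor + sgRunx1 and 114, 29.7 and 22.5 CPM in sgRunx1 + sgLuc. It was at 1132, 1929 and 1675 CPM in sgEzh2 + sgLuc, 651, 87.9 and 567 CPM in sgBcor + sgLuc and 433 to 11201 CPM in sgLuc. Relative to sgLuc, its log2 fold change was -8.15 (SE 1.08, edgeR adjusted p = 0.000113) in sgEzh2 + sgRunx1, -8.46 (SE 1.26, 0.000321) in sgBcor + sgRunx1, -6.62 (SE 1.15, 0.00201) in sgRunx1 + sgLuc, -1.90 (SE 0.88, 0.173) in sgEzh2 + sgLuc and -3.74 (SE 0.98, 0.0442) in sgBcor + sgLuc. Igkc was also 4.93 lower on the log2 scale (SE 0.63, edgeR adjusted p = 1.89e-05) in the libraries with a Runx1 guide than in the Ezh2 and Bcor guides alone. The Igkj segments together had 0 to 13 counts in libraries with a Runx1 guide, against 50 to 1220 counts in the Ezh2 and Bcor guides alone and 299 to 727 in sgLuc.

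The ratio of Igkv to Igkc counts sets the segments against the constant region of the same chains. It was 0.578 to 0.691 in the 6 libraries of the Ezh2 and Bcor guides alone and 0.631 to 0.818 in sgLuc, where total Igkv itself spread 21.3-fold. It was 0.594 to 0.780 in sgRunx1 + sgLuc, 0.928, 0.424 and 0.648 in sgBcor + sgRunx1, and 0.477, 0.167, 0.432 and 0.544 in sgEzh2 + sgRunx1. All 4 values of sgEzh2 + sgRunx1 lie below all those of sgLuc and of sgEzh2 + sgLuc. The lowest, 0.167, rests on 22 Igkv and 132 Igkc reads.

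Other B-lineage genes did not follow Igkv in every group. With a Runx1 guide, the list of 8 B-lineage genes (Cd79a, Cd79b, Ms4a1, Cd22, Pax5, Ebf1, Fcer2a and Cr2) summed to 29.8 to 60.1 CPM in sgEzh2 + sgRunx1, 17.5 to 37.7 CPM in sgBcor + sgRunx1 and 29.9 to 45.7 CPM in sgRunx1 + sgLuc. The sums were 813 to 1988 CPM in sgEzh2 + sgLuc, 63.3 to 1458 CPM in sgBcor + sgLuc and 237 to 629 CPM in sgLuc. By edgeR all 8 were called lower than in sgLuc in each of the 3 groups with a Runx1 guide. In sgEzh2 + sgLuc, 0 of 8 were lower than in sgLuc and 2 were higher, but 0 were called in either direction without its replicate 3, and in sgBcor + sgLuc 0 of 8 were called in either direction. Cd79a, the signalling chain of the B-cell receptor, had a log2 fold change of 0.92 (edgeR adjusted p = 0.414) in sgEzh2 + sgLuc and 1.21 (0.387) in sgBcor + sgLuc, where Igkc had -1.90 and -3.74.

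The plasma-cell gene Jchain encodes the joining chain of secreted IgM and IgA. Compared with Cd79a, it lay closer to Igkv with the Ezh2 or Bcor guide alone. Its log2 fold change against sgLuc was -7.86 (edgeR adjusted p = 8.41e-05) in sgEzh2 + sgRunx1, -9.03 (0.000172) in sgBcor + sgRunx1, -7.01 (0.000938) in sgRunx1 + sgLuc, -1.99 (0.130) in sgEzh2 + sgLuc and -3.91 (0.0281) in sgBcor + sgLuc. The ratio of Igkv to Jchain counts was 1.55 to 2.87 in the Ezh2 and Bcor guides alone and 1.37 to 2.36 in sgLuc, and it was 0.286 to 8.0 in the libraries with a Runx1 guide. The ratio of Igkv to Cd79a counts was 0.572 to 4.95 in the Ezh2 and Bcor guides alone, against 14.1 to 84.3 in 5 sgLuc libraries and 1.67 in sgLuc replicate 4. It was 0.733 to 9.88 in the libraries with a Runx1 guide, a narrower spread from lowest to highest, as a fold, than that of Igkv to Jchain there. Of the 8 plasma-cell genes, 6, 7 and 6 were called lower by edgeR than in sgLuc in sgEzh2 + sgRunx1, sgBcor + sgRunx1 and sgRunx1 + sgLuc, 1 in sgEzh2 + sgLuc (0 without its replicate 3) and 4 in sgBcor + sgLuc.

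**Figure D5:**
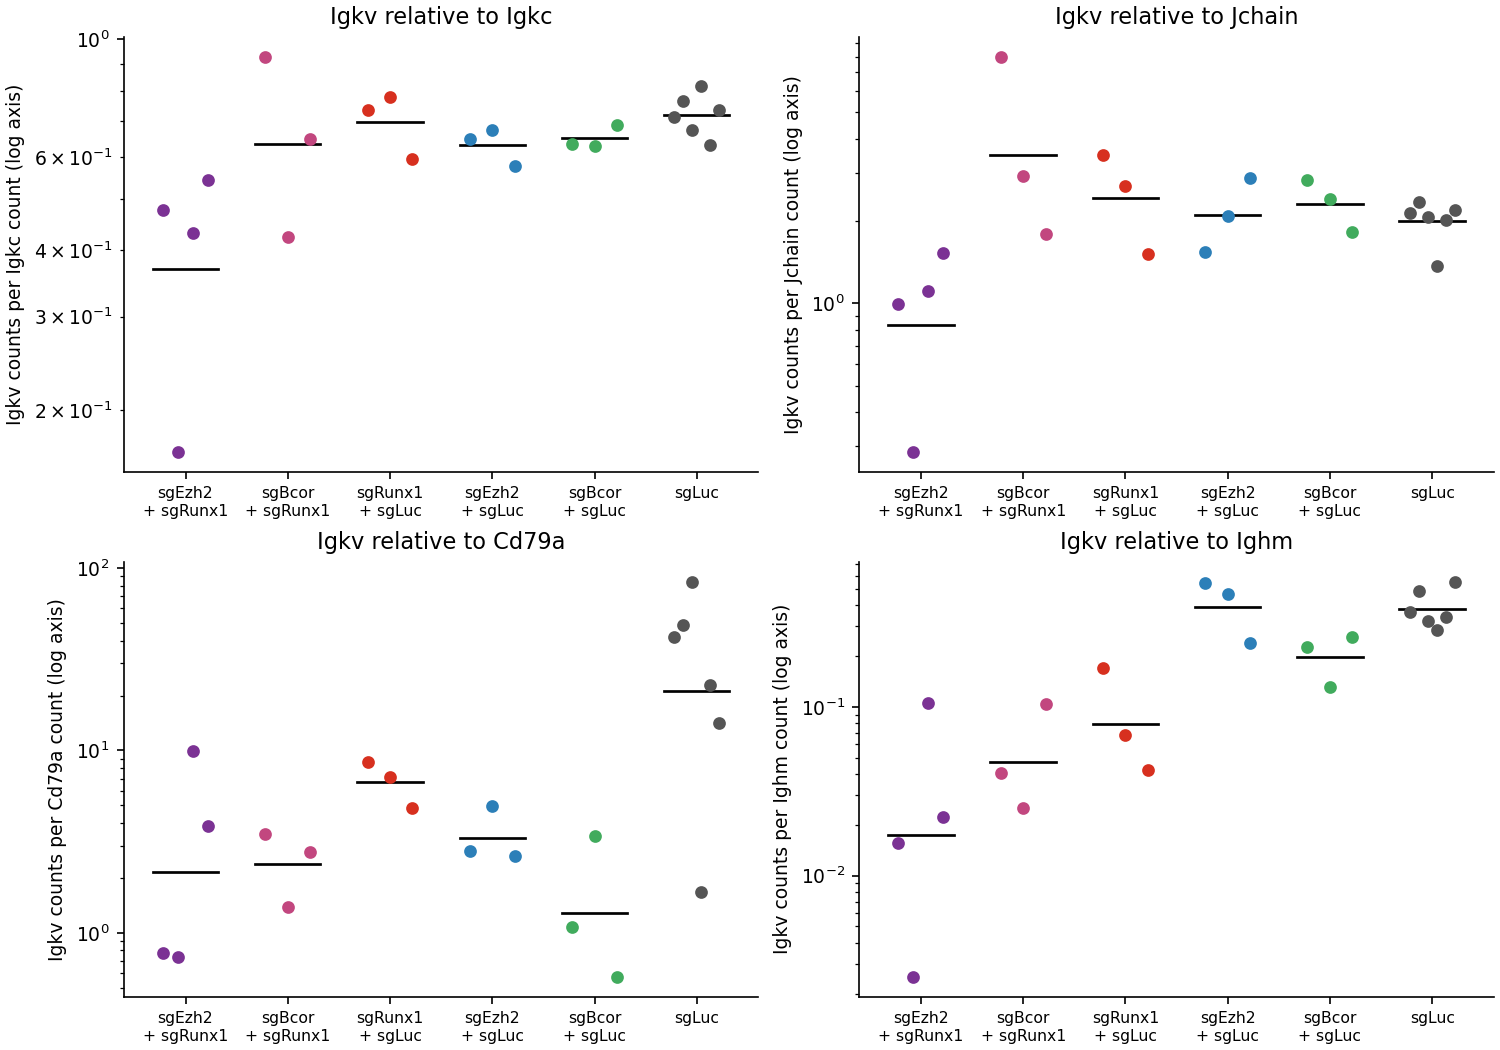
Ratio of summed Igkv counts to the counts of Igkc, Jchain, Cd79a and Ighm in each library, on log axes, with 1 point per library and a bar at the geometric mean of its group. The ratio to Igkc stays between 0.578 and 0.818 in sgEzh2 + sgLuc, sgBcor + sgLuc and sgLuc, while the ratio to Cd79a is 14.1 to 84.3 in 5 sgLuc libraries and 0.572 to 9.88 in all edited libraries.

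The lists that bear on the other antigen-receptor loci and on B-cell development are given for the comparison free of the Y-linked difference, with a Runx1 guide against the Ezh2 and Bcor guides alone. Called lower by edgeR were 6 of 6 kappa locus genes outside Igkv, 6 of 6 lambda locus genes, 7 of 7 tested heavy chain constant genes, 7 of 7 genes of the pre-B receptor and recombination, among them Rag1 (log2 fold change -6.17, adjusted p = 0.00139), which cuts the kappa locus, and 5 of 5 T-cell genes. Of 8 plasma-cell genes 6 were lower and 1, Xbp1, was higher (log2 fold change 0.56, adjusted p = 0.00345). With all libraries, 0 of 5 granulocyte and 0 of 3 erythroid genes were called. Without sgEzh2 + sgLuc replicate 3, a fit added after seeing the data, 3 of the 5 granulocyte genes were called: Mpo (log2 fold change 1.09, edgeR adjusted p = 0.0012) and Elane (0.85, 0.00952), genes of immature granulocytes, were higher and Ly6g (-1.35, 0.00186), a gene of mature ones, was lower, while the erythroid count stayed 0. The counts of the kappa, lambda, heavy chain, pre-B, T-cell and plasma-cell lists in this comparison were the same without that library. Fewer pre-B and T-cell genes were called lower against sgLuc. In sgEzh2 + sgRunx1, sgBcor + sgRunx1 and sgRunx1 + sgLuc these were 2, 1 and 0 of 7 pre-B and recombination genes and 1, 1 and 0 of 5 T-cell genes. Without sgEzh2 + sgLuc replicate 3 in the fit they were 4, 3 and 0 of 7 and 4, 4 and 1 of 5. Mpo was at 4406 to 7456 CPM in the 10 libraries with a Runx1 guide against 2170 to 3064 CPM in the 5 remaining libraries of the Ezh2 and Bcor guides alone. The heavy chain gene Ighm was less reduced than Igkc, at 99.8 to 493.5 CPM in the libraries with a Runx1 guide against 421 to 4040 CPM in the Ezh2 and Bcor guides alone (log2 fold change -2.59, edgeR adjusted p = 0.00025), so Igkv counts per Ighm count were 0.00251 to 0.170 against 0.131 to 0.543. T-cell genes summed to 0.707 to 16.6 CPM in the libraries with a Runx1 guide and 54.0 to 2631 CPM in the Ezh2 and Bcor guides alone, or 54.0 to 111 CPM without sgEzh2 + sgLuc replicate 3. The part of these other cell types in the Igkv results was not tested.

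Lambda chains are the other light chains of the mouse. Igkv reads made up 53.4, 25.6, 93.5 and 86.8% of the light-chain V reads (Igkv and Iglv) in sgEzh2 + sgRunx1, 90.8 to 93.7% in sgBcor + sgRunx1 and 93.5, 95 and 71.9% in sgRunx1 + sgLuc. They made up 88.0 to 93.3% in sgEzh2 + sgLuc, 90.0 to 92.1% in sgBcor + sgLuc, and 94.3 to 97.2% in sgLuc but for replicate 4 with 57.4%. The 3 low values outside sgLuc come from libraries with 537 Igkv reads or fewer, but other libraries with so few reads had high values. These were sgBcor + sgRunx1 replicates 1, 2 and 3 with 296, 325 and 415 Igkv reads (90.8, 93.7 and 92.8%) and sgEzh2 + sgRunx1 replicate 4 with 472 (86.8%).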

How the data were processed

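Whole-marrow mRNA libraries (oligo(dT) selection, random hexamer priming) were made from 22 mice in 6 groups, and groups and replicate numbers follow the sample titles. Per the submitters' processing notes, fastp, HISAT2, HTSeq and mm9 were used. Versions, counting options and strand use: not given in the sources used here. Deposited by the authors were raw counts per gene for 47069 genes, with 30023722 to 57175449 counts per library. The deposited FPKM served only to recover gene lengths. No 2 libraries held identical columns.

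CPM values are counts over the total of all genes. Igkv totals were compared on log2(CPM + 0.1), and segments with reads at an equal depth of 1000 Igkv counts, as the expectation over draws without replacement. Evenness is the Shannon entropy over the log of the number of segments with reads. These 4 measures, with the share of the top segment, were compared in 10 comparisons each by exact two-sided permutation tests with Benjamini-Hochberg adjustment over the comparisons of a measure. Single genes were tested with edgeR 4.0.16 (R 4.3.3, TMM, quasi-likelihood, all 22 libraries, filterByExpr with a minimum count of 10, adjustment over 17659 genes). A bound for a group at 0 uses 3 counts over the group. The fits were tested on simulated data. Alternatives were no low-count filter, a mean CPM filter of 0.5, DESeq2 1.42.0, a replicate block, only the groups compared, another pseudocount or depth, functional segments, counts per kilobase and leaving out each library. Intervals and floors cover counting error only.

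The named segments are the 8 with the highest mean share in sgLuc, the most counted of each library and, per comparison, the 3 called with the largest change and no overlap. One gene of the B-lineage list is not reported here. The members and lists were chosen with earlier results of these data known. Positions and sequences come from GENCODE M21 (GRCm38) by gene ID. Python 3.11.15, numpy 2.4.6, scipy 1.17.1, pandas 2.3.3 and matplotlib 3.10.9 were used.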

Additional observations from a re-analysis of the deposited data

Results flagged for a closer look

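In groups of 4 to 10 libraries, 53 sets of values were examined for 1 library far from the rest of its group, and 22 were flagged. The rule flags about 1 in 20 for normally spread values, which shares with many 0s are not. A segment with reads in 1 of 4 libraries is always flagged, as Igkv3-7 was with 1 read in sgEzh2 + sgRunx1 replicate 3. Some segments were also named because they led a library, so the number of flags does not measure an excess over chance. Total Igkv was flagged in sgLuc replicate 4, with 8.47 on the log2 CPM scale.

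In sgEzh2 + sgRunx1, the share of Igkv reads stood apart for Igkv1-135 in replicate 1 (35.61%), for Igkv1-110 (59.09%) and Igkv3-2 (40.91%) in replicate 2, and for Igkv5-43 (49.4%), Igkv17-127 (2.02%) and Igkv3-7 (0.119%) in replicate 3. In its replicate 4 this held for Igkv8-28 (18.43%), Igkv15-103 (18.01%), Igkv10-96 (8.9%), Igkv4-70 (1.06%) and Igkv8-24 (0.212%).

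In sgLuc, the share stood apart for Igkv4-70 (24.29%), Igkv3-2 (12.72%), Igkv8-30 (5.07%) and Igkv8-28 (4.86%) in replicate 3, and for Igkv1-117 (10.92%), Igkv1-110 (5.32%) and Igkv8-21 (1.1%) in replicate 4. It did so for Igkv10-96 (30.46%) in replicate 5 and for Igkv6-23 (8.15%) and Igkv3-7 (4.68%) in replicate 6.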

How the results depend on the processing

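Of 561 alternative values of the group results, 468 kept direction and side of the threshold or lay within 1.5 times the count. Without the low-count filter the counts of called segments were 38 for sgRunx1 + sgLuc, 0 for sgEzh2 + sgLuc and 2 for sgBcor + sgLuc against sgLuc, and 16 for sgBcor + sgRunx1 against sgBcor + sgLuc. Calls over all 28222 genes were 1043, 1043, 389 and 1521 in this order. With only the groups compared in the fit, 0 segments were called for sgEzh2 + sgLuc against sgLuc, 41 for sgEzh2 + sgRunx1 against sgEzh2 + sgLuc and 17 for sgBcor + sgRunx1 against sgBcor + sgLuc. Calls over all genes there were 99, 588 and 854. Against sgLuc, DESeq2 called 7 in sgEzh2 + sgLuc and 32 in sgBcor + sgLuc, 12 and 10 in sgEzh2 + sgRunx1 and sgBcor + sgRunx1 against sgRunx1 + sgLuc, and 52 in sgBcor + sgRunx1 against sgBcor + sgLuc. Over all genes DESeq2 called 2138, 1238, 410, 813 and 2952 in these comparisons. Leaving sgEzh2 + sgLuc replicate 3 out of the shared fit gave 17 for sgBcor + sgLuc. The replicate numbers did not pair the libraries (correlations of -0.135 to 0.096 for equal numbers, -0.184 to 0.181 for different ones), and with the replicate block sgBcor + sgLuc had 6 calls against sgLuc, the 1 count it moved by over 1.5 times. The cause of these shifts was not tested.

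Leaving out 1 library gave 28 to 64 calls for sgRunx1 + sgLuc, 0 to 7 for sgEzh2 + sgLuc, 0 to 15 for sgBcor + sgLuc and 43 to 75 for sgBcor + sgRunx1 against sgLuc, and 11 to 34 for sgBcor + sgRunx1 against sgBcor + sgLuc. The log2 total of sgEzh2 + sgRunx1 against sgLuc ranged from -9.76 to -8.05 and lost its call each time, since fewer libraries raise the smallest possible p. The top share of the Runx1-guide groups against the Ezh2 and Bcor guides alone ranged from 18.3 to 23.2 points. It ranged from -6.42 to 7.14 for sgEzh2 + sgRunx1 and -0.198 to 9.72 for sgBcor + sgRunx1 against sgRunx1 + sgLuc, and from -4.69 to 3.57 for sgEzh2 + sgLuc and -2.12 to 4.47 for sgBcor + sgLuc against sgLuc. Segments at equal depth ranged from -6.17 to 1.56 for sgBcor + sgLuc. Evenness ranged from -0.0521 to 0.0295 for sgEzh2 + sgLuc and -0.0311 to 0.101 for sgEzh2 + sgRunx1 against sgLuc, -0.0310 to 0.101 for sgEzh2 + sgRunx1 against sgEzh2 + sgLuc, and -0.0420 to 0.0484 for sgBcor + sgRunx1 against sgRunx1 + sgLuc.

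The difference in segments between the Runx1-guide groups and the Ezh2 and Bcor guides alone was -31.6 at 300 counts, -27.6 at 200 and -76.3 unthinned, and was called at each. Evenness of sgEzh2 + sgLuc against sgLuc changed sign with functional segments only (0.0053) and per kilobase (0.00069). As a log2 effective number, and as a log2 Simpson number added after seeing the data, the differences were 0.087 and 0.090 for sgEzh2 + sgLuc, -0.00028 and -0.056 for sgBcor + sgLuc and -2.27 and -1.69 for sgEzh2 + sgRunx1 against sgLuc. They were -0.71 and -0.27 for sgEzh2 + sgRunx1 and -0.57 and -0.36 for sgBcor + sgRunx1 against sgRunx1 + sgLuc, -2.35 and -1.78 for sgEzh2 + sgRunx1 against sgEzh2 + sgLuc, and -2.06 and -1.65 for the Runx1-guide groups against the Ezh2 and Bcor guides alone. Of 22 named segments by comparison, 9 were called under every alternative. With 22 to 3324 Igkv reads per library, rare segments were not detectable in the Runx1-guide groups at this depth.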

Other observations

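The Igkv families also differed in share between libraries, with no test run. In sgLuc, family 4, the family with the most segments (33, of which 26 are functional), held 16.7 ± 11.5% of Igkv reads, family 6 held 15.6 ± 13.0%, family 3 held 12.8 ± 7.4% and family 1 held 10.6 ± 5.8% (SD, n = 6). Family 14 held 54.4 and 36.0% in sgBcor + sgRunx1 replicates 1 and 2 and 43.9% in sgRunx1 + sgLuc replicate 1. Igkv counts per Ighv count, the heavy chain counterpart, were 0.099 to 0.734 in sgEzh2 + sgRunx1, 0.535 to 0.696 in sgBcor + sgRunx1 and 0.494 to 1.31 in sgRunx1 + sgLuc, against 1.31 to 1.44 in sgEzh2 + sgLuc, 1.04 to 1.25 in sgBcor + sgLuc and 0.931 to 2.11 in sgLuc.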
